A study of Mus musculus with 8 samples.

Results

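The genes described here encode subunits and assembly factors of complexes II, III and IV of the mitochondrial respiratory chain. They were taken by name from a list of 33 genes, 6 of complex II, 9 of complex III and 18 of complex IV. The deposited table holds 25428 probe sets, each standing for 1 Entrez gene, and 32 of the 33 listed genes were found in it. The complex III gene Uqcrb was not analysed here.

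RNA levels came from 8 male adult mice, with 1 lung lobe and 1 Affymetrix microarray per animal. Mice A, B, C and D were kept in hypoxia at 10% oxygen for 7 days (n = 4), and mice F, G, H and I were kept in normoxia (n = 4). All 8 mice were Nfat5fl/fl, meaning that both copies of Nfat5 were flanked by loxP sites. By the study's methods such mice carried SM-MHC-CreERT2, a Cre recombinase that is restricted to smooth muscle and active only after tamoxifen, and controls received the solvent miglyol in its place, so that Nfat5 was left intact in both groups. The letters do not pair mice across groups. Because a whole lobe was extracted, fewer cells of a type and less RNA per cell cannot be told apart.

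The respiratory chain passes electrons from nutrients to oxygen in the inner mitochondrial membrane. Complex II, the succinate dehydrogenase of the citric acid cycle, hands electrons from succinate to ubiquinone. Complex III moves them on to cytochrome c, and complex IV, cytochrome c oxidase, gives them to oxygen. Complex IV has subunits that exist in alternative forms for particular tissues, and it needs dedicated factors that build in its heme and copper.

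The lobes carried the RNA of lung. The surfactant gene Sftpc averaged 13.31 in hypoxia and 13.06 in normoxia on the log2 scale. Among 12 genes listed as lung markers, 9 had a higher and 3 a lower mean in hypoxia, whereas 50.9% of all probe sets had a lower mean. Their differences ran from -0.77 for Ptprc to 1.51 for Col1a1. Mice differed in markers of other tissues. A list's level in a mouse is the mean, over its genes, of the log2 value minus that gene's mean over the 8 mice. The 15 skeletal muscle markers had levels between -0.96 and -0.09 in the hypoxia mice, against 2.07 and 2.02 in normoxia mice F and G and -1.06 and -0.44 in normoxia mice H and I. Mice F and G thus stood apart within normoxia. The difference of each of the 32 genes without them stands beside its value or in the plot of the differences. Mouse F was the highest of the 8 mice for 16 of the 32 genes of complexes II, III and IV. How often mouse F was the highest over all probe sets was not counted, so this cannot be called particular to these genes.

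The promoters of the 33 genes were read for letters that the choice of genes did not use. RefSeq promoter windows of the GRCm38.p6 build, running from 250 bases before to 50 bases after the transcription start, were matched for 25 of them by symbol, and both strands were searched. CCGGAAGT, the core bound by GABP, was present in 5 of the 25 windows (20%), those of Uqcrh, Uqcr11, Cox8a, Cox10 and Cox15, against 4.31% of 27025 genes. CGCATGCG, the core bound by NRF1, was present in 3 windows (12%), those of Uqcrc1, Uqcr11 and Cox6a1, against 2.07% of all genes. GABP and NRF1 are transcription factors known as activators of nuclear genes for mitochondrial proteins. ACGTG, the core of hypoxia response elements, was present in 5 windows (20%), those of Sdha, Sdhaf1, Uqcr11, Cox5a and Sco2, against 21.8% of all genes. AAGATGGC, the core bound by YY1, was present in the Cox10 window alone (4.0%), against 3.19% of all genes. TCAAGGTCA, a site of estrogen-related receptors, was present in the Sdhd window alone (4.0%), against 0.466% of all genes. The matches describe the letters only. The stretches below, each 110 bases long on the minus strand and written from 100 bases before to 10 bases after the start, show where the GABP core (CCGGAAGT, or ACTTCCGG when read on the other strand) and the NRF1 core lie close to the start, in capitals. They are Uqcr11 at chr10:80406812-80406921, Uqcrh at chr4:116075061-116075170 and Cox8a at chr19:7217607-7217716.
Uqcr11: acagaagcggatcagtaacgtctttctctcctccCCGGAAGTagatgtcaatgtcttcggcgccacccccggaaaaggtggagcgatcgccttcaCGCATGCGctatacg
Uqcrh: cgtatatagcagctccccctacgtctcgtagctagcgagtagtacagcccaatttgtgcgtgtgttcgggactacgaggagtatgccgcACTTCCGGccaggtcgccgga
Cox8a: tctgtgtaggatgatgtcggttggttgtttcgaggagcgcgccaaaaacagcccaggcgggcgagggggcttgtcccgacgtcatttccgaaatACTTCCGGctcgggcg

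Most of the genes had a lower mean in the hypoxic lungs, and none passed the adjusted test. A lower mean in hypoxia was found for 25 of the 32 genes, against 50.9% of all probe sets. The median difference, hypoxia minus normoxia, was -0.24 on the log2 scale and ranged from -0.82 for Sdha to 0.42 for Cox7a2l, whereas the median over all probe sets was 0.00. None of the 32 genes passed an adjusted p of 0.05 in limma's test with Benjamini-Hochberg adjustment over the whole table, and the share called over all probe sets was likewise 0%. At an unadjusted p under 0.05, 5 of the 32 genes were lower in hypoxia (Sdha, Uqcrc2, Uqcrfs1, Uqcr10 and Cox7a2), against 3.15% of all probe sets, and 0 were higher, against 5.34%. The 4 hypoxia mice all lay below the 4 normoxia mice for 2 genes, Sdha and Uqcr10, against 1.61% of all probe sets. For no gene did they all lie above, against 3.01%. Without mice F and G the median difference over the 32 genes was -0.09, with 22 of 32 means lower in hypoxia, against 52.5% of all probe sets. In that setting 3 genes were lower at an unadjusted p under 0.05, against 5.76% of all probe sets, and 4 were higher, against 7.32%.

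**Figure D1:**
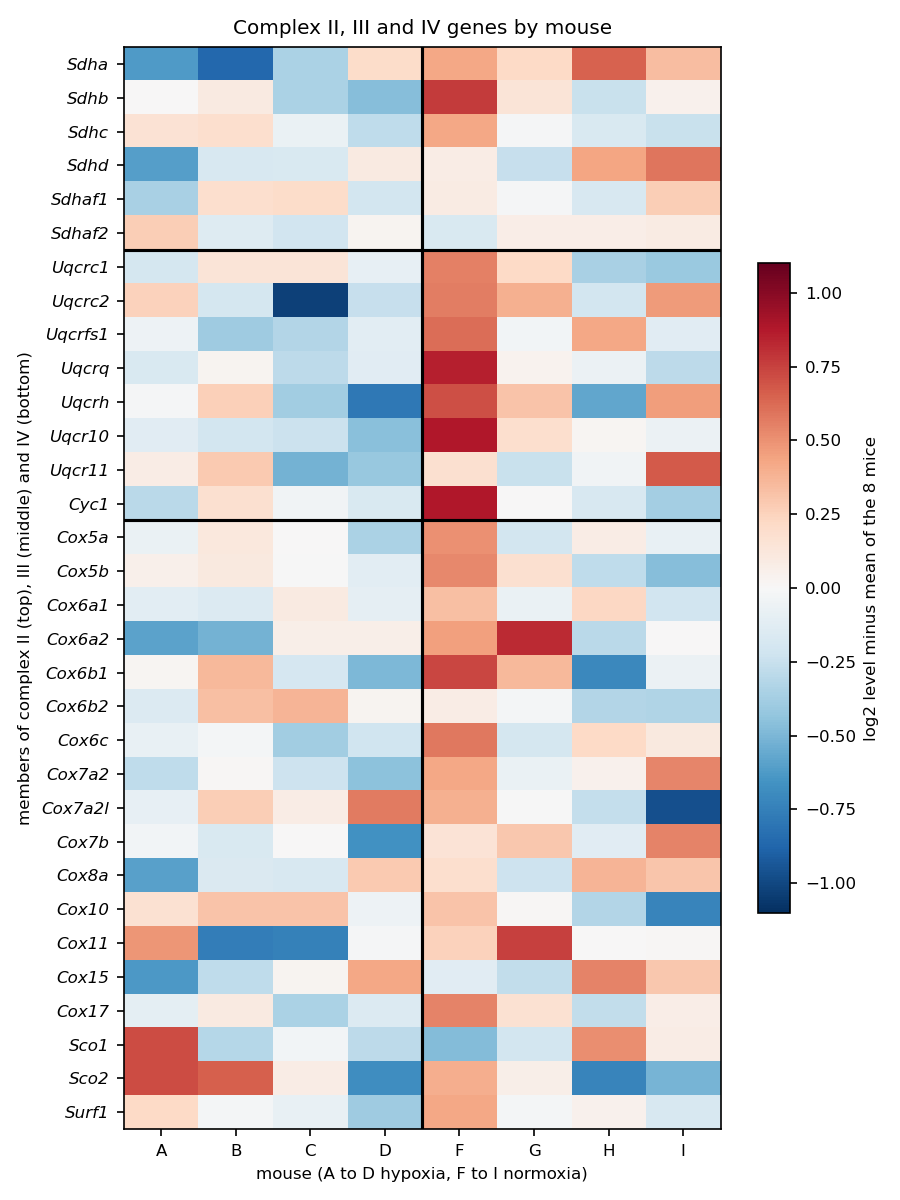
Log2 level of each of the 32 genes (rows, by complex) in each mouse (columns, hypoxia A to D left of normoxia F to I), shown as the difference from the gene's mean over the 8 mice. The column of mouse F holds the highest value for 16 of the 32 genes, including 7 of the 8 of complex III. This was not counted over all probe sets.

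Complex II held the gene furthest from 0. Sdha encodes the flavoprotein subunit in which succinate is oxidized. Its log2 values were 7.66, 7.42, 7.93 and 8.48 in hypoxia mice A, B, C and D, against 8.71, 8.50, 8.93 and 8.62 in normoxia mice F, G, H and I. Every hypoxia mouse was below every normoxia mouse, although mouse D came close to mouse G. Sdha averaged 7.87 ± 0.45 in hypoxia and 8.69 ± 0.18 in normoxia (SD, n = 4 each), a difference of -0.82 (SE 0.22, 95% confidence interval -1.30 to -0.33, limma adjusted p = 0.257). Only 0.96% of all probe sets had a lower difference. The difference lay between -1.02 and -0.67 when any 1 mouse was left out, and was -0.90 without mice F and G.

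Sdhd encodes a membrane anchor of the complex that takes part in binding ubiquinone. Its log2 values were 6.24, 6.67, 6.68 and 6.95 in hypoxia mice A to D, against 6.93, 6.59, 7.28 and 7.44 in normoxia mice F to I. Normoxia mice F and G lay within the hypoxia range. The difference was -0.42 (SE 0.22, interval -0.90 to 0.05, adjusted p = 0.644), and -0.72 without mice F and G. Sdhb, the iron-sulfur subunit, had log2 values of 7.97, 8.07, 7.62 and 7.50 in hypoxia mice A to D, against 8.74, 8.11, 7.72 and 8.02 in normoxia mice F to I. Only mouse F was clearly above the others. The Sdhb difference was -0.36 (SE 0.23, interval -0.85 to 0.14, adjusted p = 0.717), and -0.08 without mice F and G.

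The remaining genes of complex II differed little between the group means. Sdhc, the other membrane anchor, averaged 7.62 ± 0.22 in hypoxia and 7.62 ± 0.30 in normoxia (SD, n = 4 each). Its difference of -0.00 (SE 0.19, interval -0.41 to 0.41) had no stable sign. Sdhaf1, which serves the insertion of iron-sulfur clusters into Sdhb, differed by -0.09 (SE 0.18, adjusted p = 0.925). Sdhaf2, needed to attach the flavin to Sdha, differed by -0.02 (SE 0.16, adjusted p = 0.983). The median over the 6 genes was -0.22, -0.12 without mouse F, and -0.09 without mice F and G. The complex II level, which includes Sdha, was -0.19, -0.12, -0.16 and -0.11 in hypoxia mice A to D, against 0.27, 0.02, 0.09 and 0.18 in normoxia mice F to I. These levels did not overlap, but of the 6 genes Sdha alone had groups that did not overlap. The separation is therefore not a trait shown by each gene of the complex.

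Complex III had mostly lower means in hypoxia, and 1 normoxia mouse stood high. Mouse F was the highest of the 8 mice for 7 of the 8 measured genes, and the complex III level was 0.66 in mouse F, against values of -0.12 to 0.11 in the other 3 normoxia mice. The hypoxia mice A, B, C and D had levels of -0.06, 0.01, -0.33 and -0.30. The median difference over the 8 genes was -0.36, with 7 lower means. It was -0.28 without mouse F and -0.20 without mice F and G.

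Uqcr10, a small subunit of the complex, had log2 values of 5.74, 5.66, 5.63 and 5.40 in hypoxia mice A to D, against 6.74, 6.05, 5.88 and 5.80 in normoxia mice F to I. The groups did not overlap, and the 4 hypoxia mice were closer together than the 4 normoxia mice. Uqcr10 averaged 5.61 ± 0.15 in hypoxia and 6.12 ± 0.43 in normoxia (SD, n = 4 each), a difference of -0.51 (SE 0.21, interval -0.97 to -0.05, adjusted p = 0.526). It was -0.23 without mice F and G.

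Uqcrc2, a core protein of the complex, had log2 values of 8.08, 7.63, 6.80 and 7.57 in hypoxia mice A to D, against 8.39, 8.22, 7.62 and 8.29 in normoxia mice F to I. Hypoxia mouse C was the lowest, and normoxia mouse H lay among the hypoxia mice. The difference was -0.61 (SE 0.26, interval -1.19 to -0.03, adjusted p = 0.557), and -0.43 without mice F and G. Uqcrfs1, the Rieske iron-sulfur protein, had log2 values of 5.02, 4.68, 4.75 and 4.96 in hypoxia mice A to D, against 5.69, 5.04, 5.50 and 4.95 in normoxia mice F to I. Normoxia mice F, G and H were above all hypoxia mice, mouse G only narrowly, and mouse I was not. The difference was -0.44 (SE 0.19, interval -0.86 to -0.02, adjusted p = 0.56), and -0.37 without mice F and G.

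The other core protein gene of complex III gave a different value from Uqcrc2. Uqcrc1 averaged 8.70 ± 0.17 in hypoxia and 8.70 ± 0.46 in normoxia (SD, n = 4 each), a difference of 0.00 (SE 0.22, interval -0.48 to 0.48). Without mice F and G it was 0.38 (adjusted p = 0.429), with both remaining normoxia mice below all hypoxia mice. The difference between Uqcrc1 and Uqcrc2 was not tested. Uqcrh, the acidic hinge protein that touches cytochrome c1, differed by -0.46 (SE 0.29, adjusted p = 0.722), and by -0.18 without mice F and G. The small subunits Uqcr11 and Uqcrq differed by -0.28 (SE 0.24) and -0.27 (SE 0.23), each with an adjusted p of 0.795. Without mice F and G they differed by -0.46 for Uqcr11 and 0.04 for Uqcrq. Cyc1, which encodes cytochrome c1, differed by -0.16 (SE 0.25, adjusted p = 0.898). The Cyc1 log2 values were 6.37, 6.84, 6.63 and 6.50 in hypoxia mice A to D, against 7.55 in normoxia mouse F and 6.67, 6.49 and 6.29 in normoxia mice G, H and I. Mouse F stood alone above the other 7 mice, and without mice F and G the Cyc1 difference was 0.20.

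**Figure D2:**
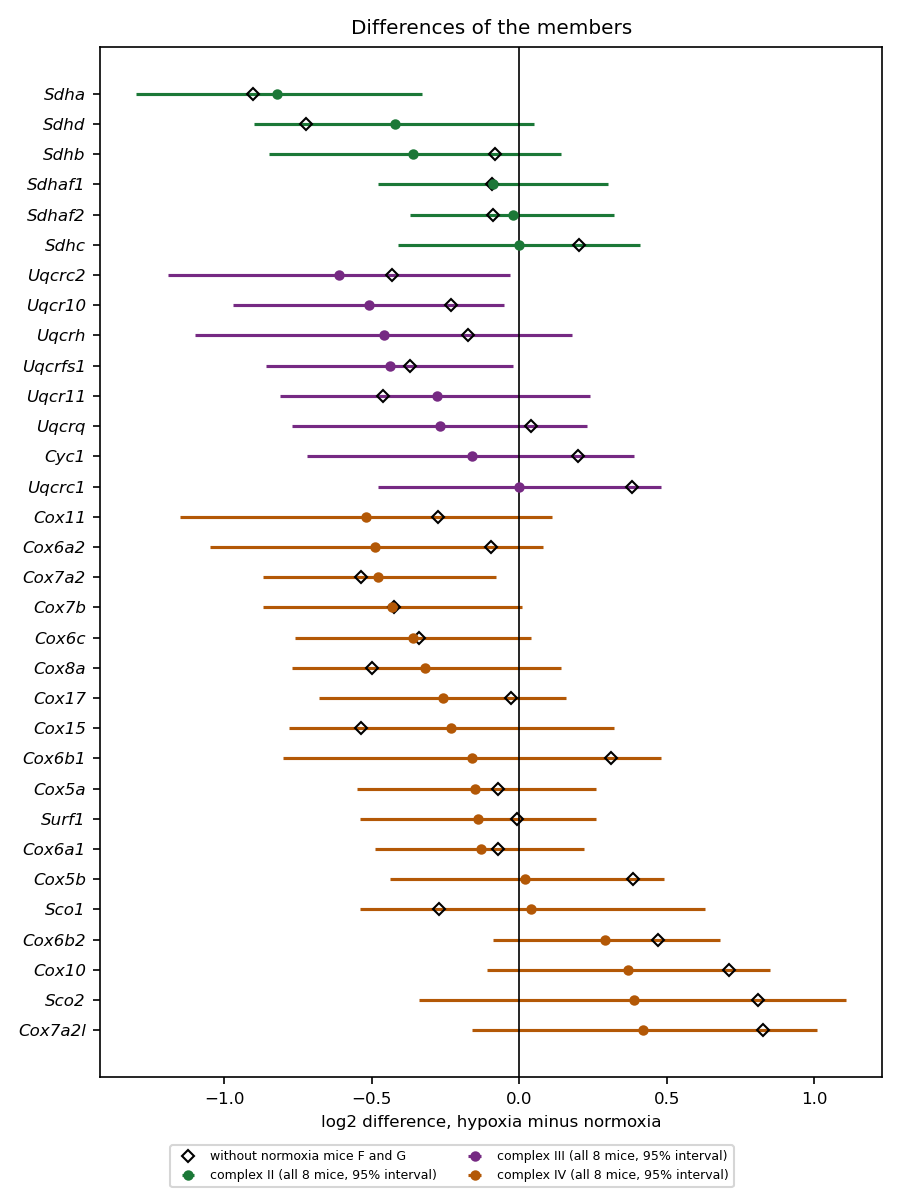
Log2 difference, hypoxia minus normoxia, of each gene with its 95% confidence interval from limma (filled points, coloured by complex), and the difference without normoxia mice F and G (open diamonds). The intervals of Sdha, Uqcrc2, Uqcr10, Uqcrfs1 and Cox7a2 lie below 0, and the diamonds of Cox7a2l, Sco2 and Cox10 lie at 0.83, 0.81 and 0.71.

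Complex IV was mixed in direction. The median difference over its 18 genes was -0.15, with 12 lower and 6 higher means in hypoxia. Its 11 subunits had a median of -0.16, and its 7 assembly factors a median of -0.14. Complex IV levels were -0.02, -0.01, -0.06 and -0.15 in hypoxia mice A to D, against 0.32, 0.08, -0.07 and -0.09 in normoxia mice F to I, so that the groups overlapped. Without mice F and G the median was -0.07.

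Among the subunits, Cox7a2 had the smallest p. Cox7a2 is the form of subunit 7a found in most tissues. Its log2 values were 6.06, 6.35, 6.11 and 5.89 in hypoxia mice A to D, against 6.76, 6.27, 6.39 and 6.88 in normoxia mice F to I. Hypoxia mouse B lay above normoxia mouse G, and the other hypoxia mice were below all normoxia mice. Cox7a2 averaged 6.10 ± 0.19 in hypoxia and 6.58 ± 0.29 in normoxia (SD, n = 4 each), a difference of -0.48 (SE 0.18, interval -0.87 to -0.08, adjusted p = 0.476). It was -0.54 without mice F and G.

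Cox7b, a small subunit needed for assembly, had log2 values of 2.66, 2.52, 2.69 and 2.02 in hypoxia mice A to D, against 2.84, 2.98, 2.56 and 3.23 in normoxia mice F to I. Its values were near the low end of the array's range, and normoxia mouse H lay among the hypoxia mice. The difference was -0.43 (SE 0.20, interval -0.87 to 0.01, adjusted p = 0.597), and -0.42 without mice F and G. Cox6c, another small subunit, had log2 values of 4.61, 4.67, 4.31 and 4.47 in hypoxia mice A to D, against 5.27, 4.50, 4.91 and 4.80 in normoxia mice F to I. Normoxia mouse G lay among the hypoxia mice. The Cox6c difference was -0.36 (SE 0.18, interval -0.76 to 0.04, adjusted p = 0.644), and -0.34 without mice F and G.

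Of the subunits that are not part of a pair below, Cox8a had log2 values of 8.27, 8.71, 8.69 and 9.15 in hypoxia mice A to D, against 9.05, 8.64, 9.24 and 9.17 in normoxia mice F to I. Cox8a is the form of subunit 8 found in most tissues, and its groups overlapped. The difference was -0.32 (SE 0.21, adjusted p = 0.729), and -0.50 without mice F and G. Cox5a, a subunit on the matrix side, differed by -0.15 (SE 0.18, adjusted p = 0.872). Cox5b, which binds zinc, differed by 0.02 (SE 0.21, adjusted p = 0.987), and by 0.39 without mice F and G.

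Cox6a2 is the heart and skeletal muscle form of subunit 6a. Its log2 values were 5.97, 6.04, 6.62 and 6.62 in hypoxia mice A to D, against 7.01, 7.38, 6.26 and 6.56 in normoxia mice F to I. The 2 highest values were those of mice F and G, the mice high in skeletal muscle markers. The difference was -0.49 (SE 0.26, interval -1.05 to 0.08, adjusted p = 0.657), and -0.10 without mice F and G. The form found in most tissues, Cox6a1, had log2 values of 11.15, 11.11, 11.36 and 11.16 in hypoxia mice A to D, against 11.59, 11.19, 11.49 and 11.05 in normoxia mice F to I. Its groups overlapped, and the difference was -0.13 (SE 0.16, interval -0.49 to 0.22, adjusted p = 0.868).

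Cox7a2l, also called SCAF1, is related to Cox7a2 and joins complexes III and IV into supercomplexes. It had the most positive difference of the 32 genes. Its log2 values were 4.97, 5.33, 5.14 and 5.63 in hypoxia mice A to D, against 5.45, 5.05, 4.79 and 4.09 in normoxia mice F to I. Normoxia mouse I was the lowest, and mouse F lay among the hypoxia mice. Cox7a2l averaged 5.27 ± 0.29 in hypoxia and 4.84 ± 0.57 in normoxia (SD, n = 4 each), a difference of 0.42 (SE 0.27, interval -0.16 to 1.01, adjusted p = 0.717). It was 0.83 without mice F and G (adjusted p = 0.234) and 0.17 without mouse I.

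The related genes of complex IV were set against each other within each mouse, to ask whether they moved apart between hypoxia and normoxia. Because levels of different probe sets cannot be compared, each within-mouse difference was centred on its mean over the 8 mice. Cox7a2l minus Cox7a2 was 0.19, 0.26, 0.31 and 1.03 in hypoxia mice A to D, against -0.03, 0.06, -0.33 and -1.50 in normoxia mice F to I. The groups did not overlap, and the shift was 0.90 on the log2 scale (two-sided exact permutation p = 0.0286, the smallest that 70 assignments allow). Adjusted over the 4 pairs examined, the exact permutation p was 0.114 and did not pass 0.05. With 70 assignments and 4 pairs, a single pair at the smallest p could not pass, so the adjusted value cannot decide here. The shift was 0.55 without mouse I, the lowest of the 8, and 1.36 without mice F and G.

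The other pairs did not separate. Cox6a2 minus Cox6a1 shifted by -0.36 (exact permutation p = 0.343, adjusted 0.457). Cox6b2, the form known from testis, had log2 values of 4.66, 5.14, 5.18 and 4.84 in hypoxia mice A to D, against 4.89, 4.79, 4.49 and 4.48 in normoxia mice F to I. Its difference was 0.29 (SE 0.17, interval -0.09 to 0.68, limma adjusted p = 0.701), and normoxia mice F and G lay within the hypoxia range. Cox6b1, the form found in most tissues, had log2 values of 7.27, 7.60, 7.06 and 6.75 in hypoxia mice A to D, against 7.98, 7.60, 6.54 and 7.18 in normoxia mice F to I. The groups overlapped throughout, with a difference of -0.16 (SE 0.29, limma adjusted p = 0.918), and of 0.31 without mice F and G. Cox6b2 minus Cox6b1 shifted by 0.45 (exact permutation p = 0.143, adjusted 0.286).

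**Figure D3:**
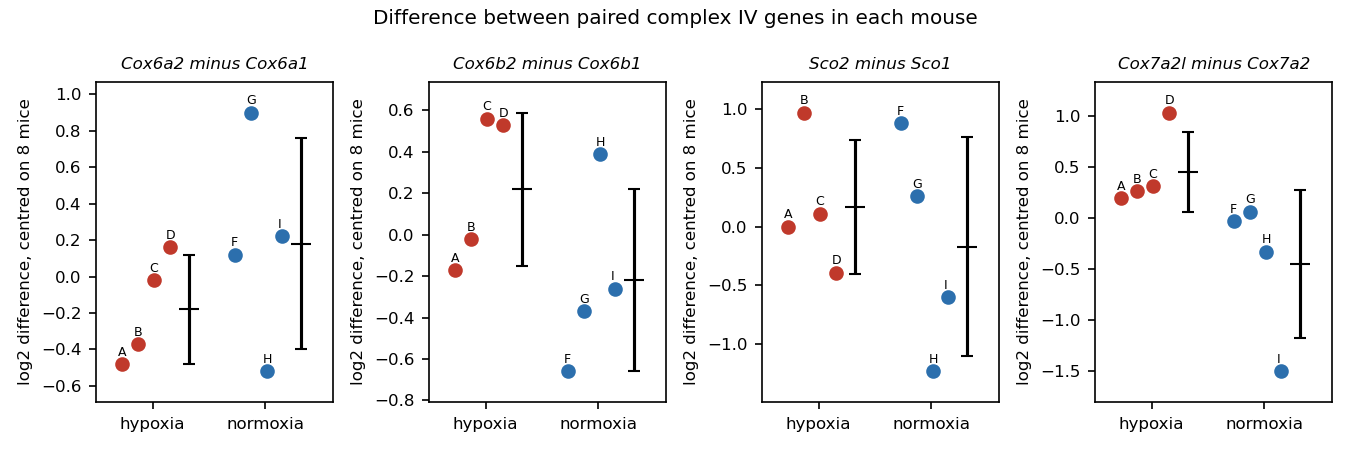
Within-mouse log2 difference between 2 related complex IV genes, centred on its mean over the 8 mice, for 4 pairs, with 1 point per mouse (hypoxia left, normoxia right) and the group mean ± SD beside them. The Cox7a2l minus Cox7a2 points of hypoxia lie between 0.19 and 1.03, all above those of normoxia, whereas the groups overlap in the other 3 panels.

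Sco1 and Sco2 are related chaperones that deliver copper to the CuA site of complex IV. Sco2 had log2 values of 4.95, 4.89, 4.31 and 3.55 in hypoxia mice A to D, against 4.63, 4.30, 3.51 and 3.72 in normoxia mice F to I. Hypoxia mouse D was among the lowest, so that the groups overlapped, and the difference was 0.39 (SE 0.33, adjusted p = 0.80), and 0.81 without mice F and G. Sco1 had log2 values of 5.05, 4.02, 4.30 and 4.04 in hypoxia mice A to D, against 3.85, 4.13, 4.84 and 4.41 in normoxia mice F to I. Neither group was higher as a whole, and the difference was 0.04 (SE 0.27, adjusted p = 0.982), and -0.27 without mice F and G. Sco2 minus Sco1 shifted by 0.34 (exact permutation p = 0.571, adjusted 0.571).

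The factors that supply heme and copper had differences of either sign. Cox10, the farnesyltransferase of the heme A pathway, had log2 values of 6.20, 6.34, 6.34 and 5.97 in hypoxia mice A to D, against 6.34, 6.04, 5.71 and 5.30 in normoxia mice F to I. Normoxia mouse F was level with the highest hypoxia mice, and the difference was 0.37 (SE 0.22, interval -0.11 to 0.85, adjusted p = 0.698). It was 0.71 without mice F and G (adjusted p = 0.212) and 0.19 without mouse I. Cox11, which delivers copper to the CuB site, had log2 values of 4.57, 3.32, 3.34 and 4.07 in hypoxia mice A to D, against 4.34, 4.84, 4.09 and 4.10 in normoxia mice F to I. Hypoxia mice B and C were the lowest and hypoxia mouse A was second only to normoxia mouse G. The difference was -0.52 (SE 0.29, interval -1.15 to 0.11, adjusted p = 0.676), and -0.28 without mice F and G. Cox17, the copper chaperone upstream of the Sco proteins, differed by -0.26 (SE 0.19, adjusted p = 0.765), and by -0.03 without mice F and G. Cox15, the last enzyme of heme A synthesis, differed by -0.23 (SE 0.25, adjusted p = 0.848), and by -0.54 without mice F and G. Surf1, which takes part in early assembly, differed by -0.14 (SE 0.18, adjusted p = 0.878).

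Further genes of the same complexes that are outside the 33 were counted from separate lists. The 23 measured other complex IV genes had 14 lower and 9 higher means, with a median of -0.09. At an unadjusted p under 0.05, 4 of them were lower in hypoxia, against 3.15% of all probe sets, and 1 was higher, against 5.34%. None passed the adjusted threshold. The hypoxia mice all lay below the normoxia mice for 2 of them, against 1.61%. Cox8b, the muscle and brown fat form of subunit 8, had log2 values of 4.62, 4.91, 4.88 and 5.00 in hypoxia mice A to D, against 8.73, 7.11, 5.78 and 6.45 in normoxia mice F to I. Mice F and G were again the highest, and the groups did not overlap. The difference was -2.17 (SE 0.48, adjusted p = 0.164), and -1.26 without mice F and G. Cox7a1, the muscle form of subunit 7a, had log2 values of 5.00, 5.71, 5.48 and 5.66 in hypoxia mice A to D, against 8.60, 7.39, 5.68 and 6.56 in normoxia mice F to I, and its groups overlapped. The difference was -1.60 (SE 0.49, adjusted p = 0.335), and -0.66 without mice F and G. Mouse F was the highest for both genes, as it was for 16 of the 32.

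Cox4i2, the lung form of subunit 4 known to respond to oxygen, was the other complex IV gene higher in hypoxia at an unadjusted p under 0.05. Its log2 values were 7.17, 7.35, 7.35 and 6.85 in hypoxia mice A to D, against 6.93, 7.05, 6.54 and 6.60 in normoxia mice F to I. The groups overlapped. The difference was 0.40 (SE 0.18, interval 0.01 to 0.79, limma adjusted p = 0.567). It was 0.61 without mice F and G (adjusted p = 0.264), with both remaining normoxia mice below all hypoxia mice. Cox16, an assembly factor for subunit 2 of the complex, had groups that did not overlap, with a difference of -0.43 (SE 0.18, adjusted p = 0.536). The Cox16 difference was -0.53 without mice F and G. Among the other complex III genes, 6 of 7 were measured, with a median of -0.10. The assembly factor Uqcc1 differed by -0.48 (SE 0.18, adjusted p = 0.477), and by -0.66 without mice F and G. The 2 other complex II genes had a median of -0.30.

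Complex I, which feeds electrons from NADH into the chain, and the ATP synthase were counted in the same way. The 34 measured complex I subunits had a median of -0.20 with 29 lower means, and 11 ATP synthase subunits had a median of -0.09 with 8 lower means. At an unadjusted p under 0.05, 7 complex I subunits and 0 ATP synthase subunits were lower, against 3.15% of all probe sets. In both lists 0 were higher, against 5.34%. The complex I levels were 0.01, 0.07, -0.23 and -0.33 in hypoxia mice A to D, against 0.48, 0.17, -0.24 and 0.07 in normoxia mice F to I, and mouse F was again the highest. The difference between complexes was not tested.

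Markers of muscle and fat had lower means in hypoxia, although skeletal muscle levels overlapped between the groups. All 16 cardiac muscle markers had lower means in hypoxia (median -0.65), with levels between -0.46 and -0.23 in hypoxia and between -0.06 and 0.61 in normoxia. All 15 skeletal muscle markers had lower means (median -1.29), with mice H and I within or below the hypoxia range. All 12 white adipocyte markers had lower means (median -1.28), with levels between -0.98 and -0.39 in hypoxia and between -0.30 and 1.38 in normoxia. The 7 measured brown fat markers all had lower means (median -0.28), with levels between -0.85 and -0.17 in hypoxia and between -0.12 and 1.57 in normoxia. These levels mostly reflected Ucp1, Cidea and Elovl3, which differed by -3.09, -2.26 and -1.29. The remaining brown fat markers differed by only -0.28 to -0.15. No defining gene named here was at the lowest value of the array table (0.89) in any mouse, which does not show that each was detected. The brown fat gene Ucp1 averaged 3.67 in hypoxia, below the median of all probe set means (4.18). Acta1, skeletal muscle actin, had 4.91 to 7.41 in hypoxia mice, against 10.37 and 9.88 in normoxia mice F and G and 5.30 and 5.20 in normoxia mice H and I. Adipoq, adiponectin of fat cells, had 3.98 to 4.37 in hypoxia mice, against 7.06, 4.58, 6.85 and 5.71 in normoxia mice F to I. Ucp1, the uncoupling protein of brown fat, had 2.71 to 5.48 in hypoxia mice, against 9.27, 5.28, 6.67 and 5.81 in normoxia mice F to I. Mouse F was highest in skeletal muscle, cardiac muscle, white adipocyte and brown fat markers, as it was in all 3 complexes. Its values were also stored unlike those of the other mice, with only 1.07% on the coarse rounding step of the others. Whether that bears on its levels was not tested. The part of muscle and fat RNA in the differences of the 32 genes was not tested.

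**Figure D4:**
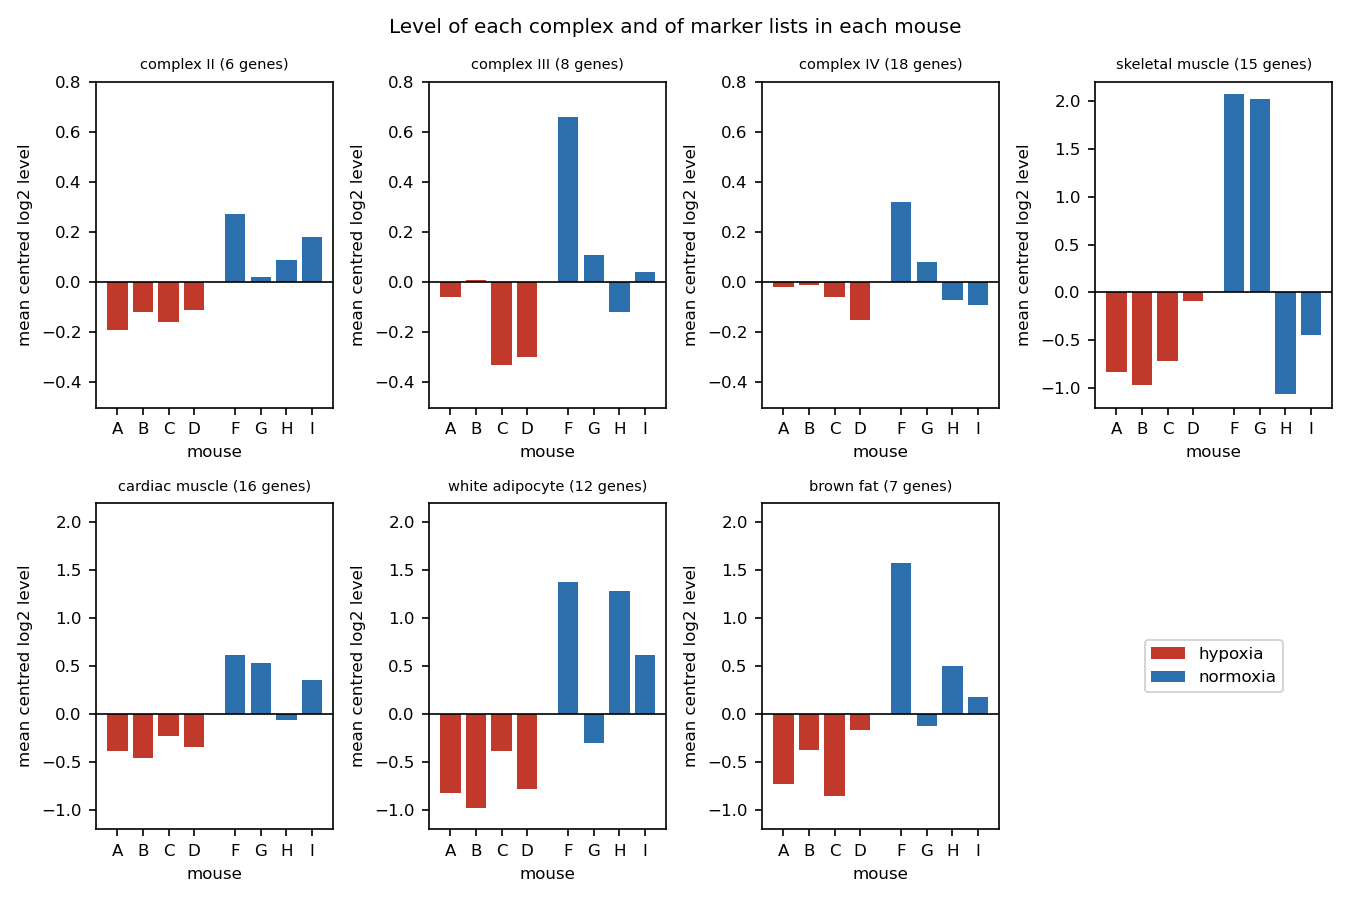
Level of each complex and of 4 marker lists in each mouse, as the mean over the listed genes of the log2 value minus the gene's mean over the 8 mice (bars from 0, hypoxia mice A to D left of normoxia mice F to I, with a narrower axis for the complexes than for the markers). Mouse F is the highest in all 7 panels, at 0.66 for complex III and 2.07 for skeletal muscle, and only mice F and G are above 0 for skeletal muscle.

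The 32 genes also differed in how far the mice of a group spread. The SD was larger in normoxia than in hypoxia for 21 of them. The median SD over the genes was 0.27 in hypoxia and 0.37 in normoxia, and 0.32 in normoxia without mouse F. The SDs were not compared over all probe sets, so the wider spread in normoxia cannot be called particular to these genes. The sign of the difference was the same under every alternative run, leaving out mice included, for 19 genes with lower and 4 genes with higher means. The runs share most of their arrays, and the same count was not made over all probe sets. The 4 with higher means were Cox6b2, Cox7a2l, Cox10 and Sco2, all of complex IV.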

How the data were processed

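RNA of 1 lung lobe per mouse was measured on a GeneChip gene expression array. The deposited values are log2 expression levels, 1 per probe set, which the authors made with a custom chip definition (version 22) based on Entrez genes and with quantile normalization; RMA is named in the submitters' processing notes, without a version. The background correction, and which arrays were normalised as a set, were not given in the sources used here. Values of 7 mice were rounded to a coarse step, whereas only 1.07% of those of mouse F fell on it. Array medians lay between 4.17 and 4.20. Depth has no meaning here, and the number of arrays limits the precision.

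Probe sets were named through the array's annotation (24705) or Entrez identifiers in RefSeq (564), and 159 had no symbol. Differences, hypoxia minus normoxia, were fitted for all 25428 probe sets without a filter in limma 3.58.1 (R 4.3.3) by lmFit and eBayes, with Benjamini-Hochberg adjustment over the table, and the script was tested on simulated data. Standard errors and 95% confidence intervals are limma's. The 4 pairs of related genes were compared by exact permutation over 70 assignments. Values in every mouse are given for the 3 genes of complex II, 3 of complex III and 6 of complex IV with the smallest p, for genes without overlap and for paired genes. From other lists up to 3 genes with the smallest p may be named, plus Cox8b, Cox4i2 and Cox7a1. Cox8a, Cyc1, Acta1, Adipoq, Sftpc and Ucp1 were named after their values were seen. Members and lists were chosen with earlier results of these data known. Alternatives were another quantile normalization, median centring, leaving out dim probe sets, a variance trend, array weights, the methods' one-way ANOVA, leaving out mice, and leaving out Cox6a2 and Cox6b2. Cross-hybridisation between related genes was not checked. The arrays came from separate mice, 1 lobe each.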

Additional observations from a re-analysis of the deposited data

Results flagged for a closer look

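Sdhaf2, the flavin assembly factor of complex II, was 5.56 in normoxia mouse F, below the other normoxia mice, which lay between 5.80 and 5.82. The gap was 0.931 of the range of the 4 normoxia values, above Dixon's 95% critical value for 4 samples. Among 78 groups of 4 values examined this was the only such case, and chance alone gives about 1 in 20.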

How the results depend on the processing

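None of the 32 genes passed an adjusted p of 0.05 under any alternative run, the smallest among them lying between 0.133 and 0.784. The 5 genes lower at an unadjusted p under 0.05 became 2 with the methods' one-way ANOVA (2.89% of all probe sets) and 1 to 8 when a mouse was left out, with Sdha alone left without mouse F (3.54%), 2 without mouse B (1.88%) and 8 without mouse H (4.32%). Without mice F and G they became 3, and 4 genes instead of 0 were higher. When a mouse was left out, 0 to 2 were higher. The 2 genes lower without overlap became 6 without mice F and G, against 11.1% of all probe sets, while 5 (Uqcrc1, Cox5b, Cox6b2, Cox7a2l and Cox10) became higher without overlap, against 10.9%. When a mouse was left out, 2 to 5 were lower without overlap, against 2.02% to 3.94% of all probe sets. The complex II median was -0.09 without mice F and G, -0.123 without mouse F, and between -0.30 and -0.123 over all mice left out in turn. The signs of differences near 0 turned. Sdhc was 0.005 with median centring, 0.014 with array weights, 0.202 without mice F and G and -0.082 to 0.139 when a mouse was left out. Uqcrc1 was -0.032 with repeated quantile normalization, -0.031 with array weights and -0.135 to 0.184 when a mouse was left out. Cox5b was -0.022 with array weights and -0.129 to 0.203. Without mice F and G, Uqcrq was 0.039, Cyc1 0.198, Cox6b1 0.312 and Sco1 -0.272. When a mouse was left out, Sdhaf1 ranged from -0.173 to 0.014, Sdhaf2 from -0.118 to 0.041, Cyc1 from -0.318 to 0.105, Cox6b1 from -0.419 to 0.064, Sco1 from -0.19 to 0.22, Cycs from -0.153 to 0.089 and the Sco2 minus Sco1 shift from -0.01 to 0.692. The cause was not tested. The complex III median was -0.36 in the main analysis and -0.20 without mice F and G. It lay between -0.426 and -0.273 over all mice left out in turn. The complex IV median was -0.15 in the main analysis and -0.07 without mice F and G. It lay between -0.214 and -0.077 over all mice left out in turn. Both medians stayed negative but were smaller in size without mice F and G. Over all probe sets 0 passed the adjusted threshold in the main analysis, and 53 did with dim probe sets left out, 22 with array weights and 12 with a variance trend. No paired analysis was possible because the groups share no replicate labels.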

Other observations

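Regulators of mitochondrial biogenesis were lower on average as well. Of 10 measured regulators, 8 had a lower mean in hypoxia, against 50.9% of all probe sets, and 2 had a higher mean. The median difference was -0.32. None passed the adjusted threshold, and the share over all probe sets was likewise 0%. Ppargc1b, a coactivator of mitochondrial genes, had log2 values of 3.41, 3.42, 3.61 and 3.70 in hypoxia mice A to D, against 4.16, 3.81, 4.00 and 3.84 in normoxia mice F to I. The groups did not overlap, with a difference of -0.42 (SE 0.15, limma adjusted p = 0.446) and of -0.38 without mice F and G. Ppargc1b was the 1 regulator of 10 that was lower without overlap, against 1.61% of all probe sets. Its relative Ppargc1a had log2 values of 3.69, 3.43, 2.99 and 3.95 in hypoxia mice A to D, against 4.10, 4.35, 3.70 and 4.41 in normoxia mice F to I. The groups overlapped through hypoxia mouse D and normoxia mouse H. The Ppargc1a difference was -0.62 (SE 0.23, adjusted p = 0.46), and -0.54 without mice F and G. The mitochondrial transcription factor gene Tfb2m differed by -0.45 (adjusted p = 0.666), and by -0.34 without mice F and G. Cycs encodes the cytochrome c that carries electrons between complexes III and IV. Cycs differed by -0.06 (SE 0.18, adjusted p = 0.959), and by -0.16 without mice F and G.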
